A study of Mus musculus with 12 samples.

Results

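The genes described here encode the proteins of the cytosolic ribosome, measured in mouse hearts after pressure overload and after exposure to diesel exhaust before birth. They were chosen by symbol, Rpl or Rps with a number, together with Rplp0, Rplp1, Rplp2 and Rpsa, without the Rps6k kinases and the processed pseudogenes whose symbols end in -ps. The rule matched 91 of the 27179 genes in the deposited table. One match, Rps19bp1, encodes a binding protein and not a ribosomal protein, which left 90 genes. Of these, 77 are core genes, 46 for the large and 31 for the small subunit. A further 7 are paralogs (Rpl3l, Rpl7l1, Rpl10l, Rpl22l1, Rpl36al, Rpl39l and Rps27l), and 6 are retrocopies or retrocopy-like copies, named here retrocopies (Rpl6l, Rpl32l, Rpl37rt, Rps27rt, Rps23rg1 and Rps4l).

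The study sequenced RNA of 12 hearts taken at 15 weeks of age, 3 in each of 4 groups, after mating in filtered air. The first group was exposed to diesel exhaust in utero and had transverse aortic constriction (TAC), a tie around the aorta that loads the left ventricle with pressure. The second had diesel exhaust and a sham operation, the third filtered air and TAC, and the fourth filtered air and sham. Exposure ran from E0.5 to E17.5 of gestation, all offspring were then raised in filtered air, echocardiography was at 11 weeks and surgery at 12 weeks with a 27 gauge needle. Per the labels' protocols 4 libraries shared each sequencing run. Which strain, sex, litter and run each heart belongs to is not given in the sources used here. The p-values measure the spread between these hearts, and with shared litters those of the exposure comparisons would be too small.

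A ribosome holds a small subunit that reads the mRNA and a large subunit that joins the amino acids, and nearly all of its proteins are present in one copy. Their mRNAs are among the most abundant in growing cells and as a rule start with a terminal oligopyrimidine (TOP) tract, a C followed by a run of C and T in the DNA, through which mTOR and Larp1 control their translation. The heart muscle cell has a special case: Rpl3l, a paralog of Rpl3 found in heart and skeletal muscle, takes the place of Rpl3 in the large subunit of adult muscle. Rpl3 lies near the peptidyl transferase centre. Rps27l is a paralog of Rps27 known as a target of p53, and Rps27rt is a retrocopy that lies elsewhere in the genome.

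The starts of the genes that the results turn on are printed here as windows of 50 bases from RefSeq, build GRCm38.p6, read 5′ to 3′ on the gene's strand with the annotated start at position 31. Rpl3l and Rps27l have 2 annotated starts and the one listed first is shown. For Rps27l and Rps2 the start shown is not the most upstream base of the gene. Capitals mark a TOP run, found as a C followed by at least 4 bases C or T, where it begins within 5 bases before or after the start.
Rpl3l, chr17:24727796-24727845, plus strand: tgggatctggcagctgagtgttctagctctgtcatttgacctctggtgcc
Rps2, chr17:24720033-24720082, plus strand: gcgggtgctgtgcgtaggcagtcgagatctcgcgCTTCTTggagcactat
Rps27l, chr9:66946056-66946105, plus strand: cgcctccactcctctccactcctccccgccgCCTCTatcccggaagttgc
Rps27, chr3:90213629-90213678, minus strand: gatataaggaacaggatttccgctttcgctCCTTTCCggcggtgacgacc
Rps27rt, chr9:114982720-114982769, minus strand: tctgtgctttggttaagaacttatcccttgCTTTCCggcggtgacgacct
Rps6, chr4:86857348-86857397, minus strand: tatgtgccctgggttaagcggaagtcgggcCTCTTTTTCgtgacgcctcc
Rpl26, chr11:68901536-68901585, plus strand: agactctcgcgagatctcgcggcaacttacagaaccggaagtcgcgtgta
The windows of Rps27 and Rps27rt are shown because they share a stretch of 19 bases, ctttccggcggtgacgacc, while the bases before the start differ. Rps6 carries the longest of the printed runs, 9 bases, at its first base. Rps2 and Rps27l have their run 4 bases and 1 base after the annotated start. Neither annotated start of Rpl3l holds one, nor does the start of Rpl26.

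The RefSeq promoter table held 80 starts of 68 of the genes. A TOP run began at the annotated base itself in 15 of these starts (18.8%), against 823 of all 32851 starts (2.51%). Within 5 bases of the start it was found in 34 of 80 (42.5%), against 18.4% of all starts. It began at the start in 13 of 67 core starts and 2 of 4 retrocopy starts, and in none of 9 paralog starts. No match says only that these letters are not at the annotated base.

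These genes took a small share of the counts. Depth was 5534685 to 13265816 counts per library, of which mitochondrially encoded RNA took 18.3% to 32.4%. The ribosomal protein genes took 0.367% to 0.56% of the counts in diesel-exposed TAC hearts and 0.335% to 0.426% in diesel-exposed sham hearts. They took 0.403% to 0.447% in filtered-air TAC hearts and 0.38% to 0.41% in filtered-air sham hearts. The groups overlap, and the highest value was that of 1 library, diesel-exposed TAC replicate 1. After the filter on low counts 86 of the 90 genes were tested among 13626 genes, namely 75 core genes, 5 paralogs and all 6 retrocopies. The 4 others were Rpl10l with 0 counts, Rpl39l with 1, Rpl13 with 16 and Rpl39 with 33 over all libraries. A floor of 3 counts corresponds to 0.226 to 0.542 counts per 1000000 (CPM) per library, for counting error only.

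Levels between genes were compared per kilobase of exon, with the exon length taken as the union over all annotated transcripts, which lowers the value of genes with long minor transcripts. On this scale the 75 tested core genes ran over a 206-fold range with a median of 19.7 CPM per kb, as the plot of levels shows. Rpl8, a protein at the peptidyl transferase centre, was highest at 145 CPM per kb, and Rps15 had 142. Of the stalk proteins, which call in the elongation factors, Rplp0 had 110 and Rplp1 had 104 CPM per kb. The lowest were Rpl9 at 0.704, Rpl36a at 1.17, Rpl28 at 1.43, Rps15a at 2.52 and Rpl17 at 2.76 CPM per kb. The highest value of all belonged not to a core gene but to the retrocopy Rps27rt at 438 CPM per kb, and Rpl37rt had 166.

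**Figure D1:**
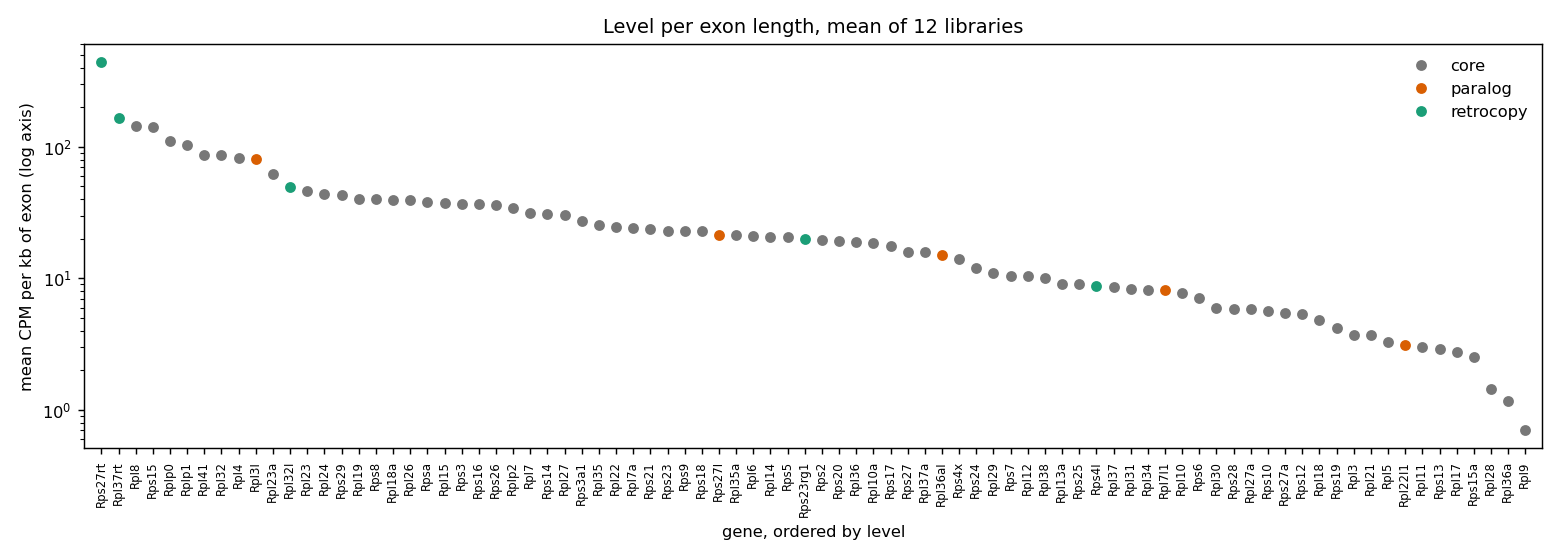
Mean level of tested genes with an exon length over the 12 libraries, in CPM per kb of exon on a log axis, ordered from high to low and coloured by class. The retrocopies Rps27rt (438) and Rpl37rt (166) head the order, and the core genes run from 145 for Rpl8 to 0.704 for Rpl9.

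Reads of a gene and of its copies are hard to tell apart, and the files gave many to the copies. Of the core genes, 20 had copies found by symbol, either pseudogenes or retrocopies, and for 12 of them the copies held more counts than the gene. Copies under unrelated symbols or without a symbol were not looked for, so other core genes may have copies too. The 12 libraries together gave 18141 counts to Rps27rt and 1705 to Rps27, so that the copy held 91.4% of the family's counts. Rpl37rt held 13529 counts against 1504 for Rpl37. The pseudogene of Rpl13 held 1750 counts against 16 for Rpl13, or 99.1%. The 2 pseudogenes of Rpl17 held 96.8% of that family's counts, and copies held 86.0% for Rpl36, 80.1% for Rps15a and 77.5% for Rpl31. How reads that match several places were treated is not given in the sources used here, so the counts of these families are uncertain for each gene alone.

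Other genes lie inside these genes, and 24 of them hold 34 small nucleolar RNA (snoRNA) genes, guides of ribosomal RNA modification, within their interval. Snora64 inside Rps2 had 59595 counts against 3493 for Rps2, and Snord83b inside Rpl3 had 36195 against 1200 for Rpl3. Reads on an exon and reads on such a small RNA are counted for different genes where they do not overlap. Their part in the values of the hosts was not tested.

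In these genes 4 libraries stood apart, replicate 1 of each group. They were taken as the 4 with the highest share of ribosomal protein counts in the 6 retrocopies. That share was 14.5% to 17.04% in them, against 7.35% to 11.3% in the other 8 libraries. Retrocopy shares were 17.04%, 9.89% and 8.62% in diesel-exposed TAC hearts and 14.5%, 7.35% and 9.48% in diesel-exposed sham hearts. The shares were 15.9%, 10.2% and 9.21% in filtered-air TAC hearts and 16.02%, 9.55% and 11.3% in filtered-air sham hearts. The deviations of each gene's log2 CPM from its mean over the 12 libraries correlated at r = 0.311 to 0.625 among these 4 libraries and at −0.626 to 0.035 between them and the 8 others, over the 80 tested genes other than the retrocopies, which served to choose the libraries. Among the 8 others r was −0.215 to 0.525, given here as a description. Diesel-exposed sham replicate 2, kept among the 8, had the lowest depth of the 12 libraries (5534685 counts). Its share of mitochondrially encoded RNA (18.3%) and its retrocopy share (7.35%) were the lowest as well.

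The 4 libraries had 10 of these 80 genes higher than in each of the 8 others and 7 lower than in each. Of all genes tested other than the retrocopies, 1.97% and 1.75% did so. Rpl6 and Rps23, among the 10, are parents of the retrocopies Rpl6l and Rps23rg1. Among the retrocopies, which were used to choose the libraries, Rps27rt averaged 312 CPM in the 4 libraries and 89.5 CPM in the 8 others. Of the 80 genes, Rps26 averaged 91.2 CPM in the 4 libraries and 37.9 CPM in the 8 others, and Rpsa 168 and 98.2 CPM. Lower in the 4 were Rpl12 with 21.9 against 45.4 CPM, Rps15 with 61.9 against 103.5 CPM, and Rpl23 with 56.3 against 94.7 CPM. Each group holds 1 of the 4, and whether these 4 were the libraries of 1 sequencing run is not given. Results are given below also with the 4 libraries left out or with a term for them in the fit, both chosen after the data were seen.

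**Figure D2:**
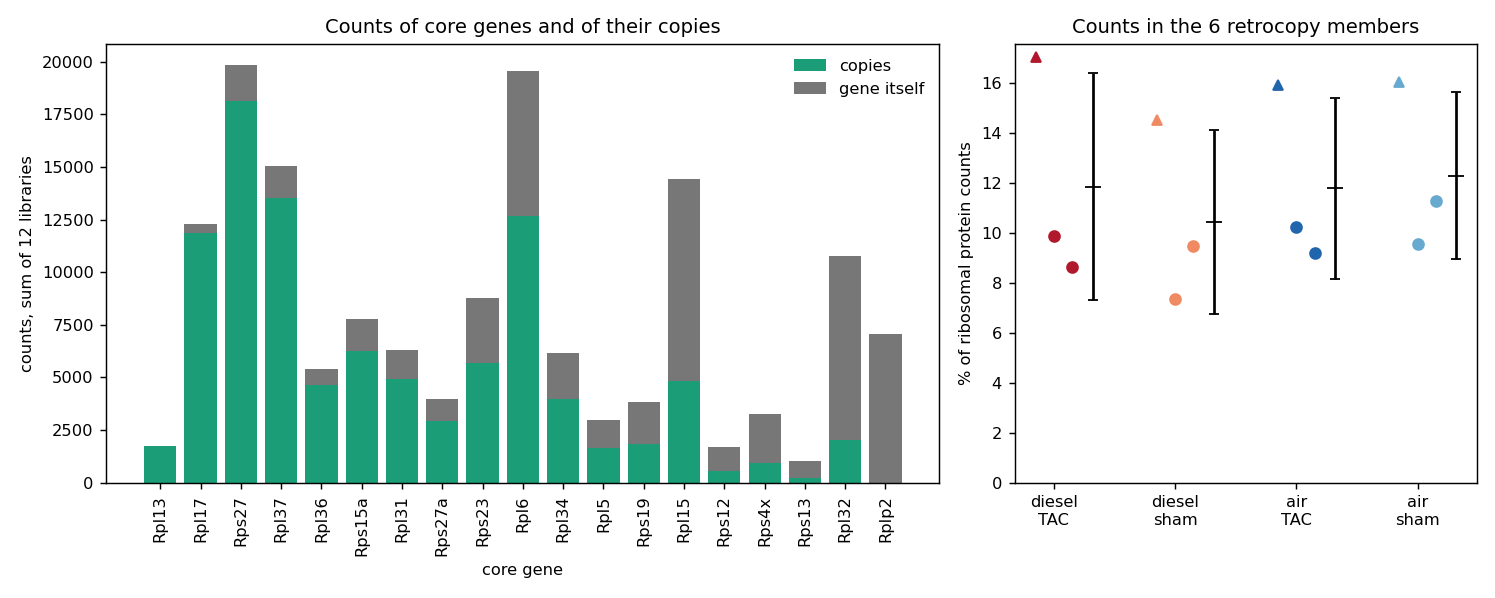
Left, counts over 12 libraries of core genes that have copies found by symbol, split into copies and the gene itself, ordered by the share of the copies. Right, the share of ribosomal protein counts in the 6 retrocopies in each library by group, with triangles for the 4 libraries that stand apart (14.5% to 17.04%) and circles for the others (7.35% to 11.3%), and mean ± SD.

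Pressure overload after diesel exhaust was examined first, as the comparison of TAC with sham hearts of the same exposure. In it 1 of the 86 genes passed an adjusted p of 0.05, the muscle paralog Rpl3l, which fell, and none rose, while 3.24% of all genes passed, 1.75% higher and 1.49% lower. At an unadjusted p under 0.05 there were 4 higher (Rps27l, Rpl26, Rpl3 and Rps12) and 2 lower (Rpl3l and Rps2), or 6.98% of the 86 against 15.9% of all genes. DESeq2 in place of edgeR called 2 higher (Rps27l and Rpl26) and 1 lower (Rpl3l). The libraries of both groups did not overlap for 5 genes that were higher in TAC hearts (Rpl26, Rpl3, Rpl32l, Rps13 and Rps27l), against 11.1% of all genes. They did not overlap for 3 that were lower (Rpl3l, Rplp0 and Rps4l), against 11.2% of all genes.

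Rpl3l had 123.5, 84.0 and 53.2 CPM in diesel-exposed TAC hearts, against 222.5, 159 and 156 CPM in diesel-exposed sham hearts. Every TAC heart lay below every sham heart. In filtered air it had 123.5, 75.4 and 99.5 CPM in TAC hearts and 186, 139 and 157 CPM in sham hearts, again without overlap. In all 4 groups the library that stands apart had the highest value. The log2 fold change was −1.04 ± 0.26 (SE) after diesel exhaust (edgeR, adjusted p = 0.0336) and −0.69 ± 0.26 in filtered air (adjusted p = 0.292), and the interaction of −0.35 ± 0.36 had an adjusted p of 1.0. Averaged over exposure it was −0.87 ± 0.18 (adjusted p = 0.00628), lower in 6 of 6 TAC hearts than in any of the 6 sham hearts.

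The fall averaged over exposure passed in each of the 20 alternatives, with adjusted p between 1.56e-05 and 0.0229. The fall after diesel exhaust did not pass without TAC replicate 2 (0.118) or 3 (0.131), without sham replicate 1 (0.132), 2 (0.061) or 3 (0.0539), or without filtered-air TAC replicate 3 (0.0522). It was −1.19 ± 0.22 without the 4 libraries that stand apart (adjusted p = 0.00306). With a term for them Rpl3l also passed in filtered air, at −0.71 ± 0.17 (adjusted p = 0.0276).

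Rpl3, the general form, lay on the other side. It had 12.5, 13.7 and 17.1 CPM in diesel-exposed TAC hearts and 7.79, 10.03 and 9.23 CPM in diesel-exposed sham hearts. With filtered air in utero it had 14.2, 15.2 and 12.1 CPM in TAC hearts and 6.14, 11.8 and 11.2 CPM in sham hearts. All 6 TAC values were above all 6 sham values, and Rpl3 was the only one of the 86 genes higher without overlap over both exposures, against 2.19% of all genes. The log2 difference averaged over exposure was 0.60 ± 0.19 and missed the threshold (edgeR, adjusted p = 0.0589), while DESeq2 gave 0.0446 and a term for the libraries that stand apart 0.0237. Without those 4 libraries it was 0.47 ± 0.19 (adjusted p = 0.17). In the separate exposures it was 0.68 ± 0.27 after diesel exhaust (adjusted p = 0.202) and 0.52 ± 0.27 in filtered air (adjusted p = 0.499).

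Set per kilobase of exon, Rpl3l was the main form of the pair in every heart. It made up 91.0 ± 4.8% (SD, n = 3) of Rpl3l and Rpl3 together in diesel-exposed TAC hearts and 97.4 ± 0.75% in diesel-exposed sham hearts. The share was 93.0 ± 2.1% in filtered-air TAC hearts and 96.9 ± 1.3% in filtered-air sham hearts. The lowest single value was 85.7%, in diesel-exposed TAC replicate 3, and the highest 98.3%, in a filtered-air sham heart. The exon lengths, unions over all transcripts, were 1643 bp for Rpl3l and 3175 bp for Rpl3. The shares depend on these lengths, and a long minor transcript of Rpl3 would raise the share of Rpl3l. Rpl3l itself came to 52.9 CPM per kb in diesel-exposed TAC hearts and 109 in diesel-exposed sham hearts, and to 60.5 CPM per kb in filtered-air TAC hearts and 97.9 in filtered-air sham hearts. Rpl3 came to 4.55 CPM per kb in diesel-exposed TAC hearts and 2.84 in diesel-exposed sham hearts, and to 4.35 CPM per kb in filtered-air TAC hearts and 3.05 in filtered-air sham hearts. The sum of both forms was thus lower in the TAC means of both exposures, since the difference in Rpl3l was many times that in Rpl3.

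Markers of heart muscle cells, the cells in which Rpl3l is known to be made, moved the same way as Rpl3l. Of 10 cardiomyocyte markers 2 fell after TAC in diesel-exposed hearts (Tcap and Tnni3), 0 in filtered air with 3 at an unadjusted p under 0.05 and 0 by DESeq2, and 5 averaged over exposure, with a median log2 difference of −0.50. Their summed level was 41470 to 47380 CPM in diesel-exposed TAC hearts and 63380 to 74560 CPM in diesel-exposed sham hearts. It was 39280 to 63650 CPM in filtered-air TAC hearts and 58250 to 77780 CPM in filtered-air sham hearts. Tcap, the telethonin of the Z-disc, fell by 0.77 ± 0.135 averaged over exposure (log2, adjusted p = 8.35e-04). In bulk heart RNA, fewer cells of a type and less RNA per cell cannot be told apart, and the part of cell makeup in the fall of Rpl3l was not tested.

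Markers of other cell types were examined too. Of 9 fibroblast markers 6 rose averaged over exposure, led by Postn (log2 3.47 ± 0.24), and their summed level was 2285 to 3048 CPM in diesel-exposed TAC hearts against 790 to 986 CPM in diesel-exposed sham hearts. It was 1482 to 2799 CPM in filtered-air TAC hearts against 877.5 to 937 CPM in filtered-air sham hearts. Of 10 macrophage markers 2 rose, Csf1r and Mrc1, and of 7 smooth muscle and pericyte markers Pdgfrb and Cspg4 rose and Acta2 fell. Of 8 endothelial markers none passed with edgeR (2 higher at an unadjusted p under 0.05, 1 by DESeq2), and none of 5 testable red cell markers passed (0 unadjusted and 0 by DESeq2). All 8 lymphocyte markers were too low to test, with a summed level of at most 5.51 CPM in any library. Only 2 of 6 skeletal muscle markers were testable, Myh1 and Myh4, and neither passed (1 lower at an unadjusted p under 0.05, 0 by DESeq2).

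Rpl3l lies on chromosome 17 at 24727826 to 24736143 (GRCm38.p6), 5899 bp from the end of Rps2, at 24718121 to 24721927, with Ndufb10 between them. Rps2 encodes a small-subunit protein at the channel where the mRNA enters. It had 30.5, 29.5 and 21.8 CPM in diesel-exposed TAC hearts and 38.0, 64.9 and 25.3 CPM in diesel-exposed sham hearts. After filtered air it had 29.2, 32.6 and 27.8 CPM in TAC hearts and 45.2, 41.6 and 45.6 CPM in sham hearts. The groups overlapped after diesel exhaust and not in filtered air. Rps2 fell by 0.60 ± 0.17 averaged over exposure (log2, adjusted p = 0.0362), and the difference was −0.64 ± 0.25 after diesel exhaust (0.18) and −0.56 ± 0.25 in filtered air (0.387).

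The fall of Rps2 was lost in 9 of the 12 fits without 1 library, all but those without diesel-exposed TAC replicate 1 and diesel-exposed sham replicates 1 and 3, with adjusted p up to 0.102, and without the 4 libraries that stand apart (0.172). Without diesel-exposed sham replicate 2, its highest library, the difference was −0.39, and −0.22 after diesel exhaust alone. Of the 10 cardiomyocyte markers given above 5 fell in the comparison averaged over exposure, and their part in the fall of Rps2 was not tested. Ndufb10, a subunit of respiratory complex I, was at −0.36 ± 0.13 (adjusted p = 0.107). The snoRNA Snora64 within Rps2 was at −0.08 ± 0.51 (adjusted p = 0.955).

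Rps27l was the gene that rose. It had 23.7, 20.4 and 23.6 CPM in diesel-exposed TAC hearts and 13.5, 6.18 and 13.4 CPM in diesel-exposed sham hearts, without overlap. In filtered air it had 13.5, 26.9 and 27.6 CPM in TAC hearts and 11.1, 14.5 and 15.3 CPM in sham hearts, and the TAC library that stands apart lay among the sham hearts. Averaged over exposure Rps27l rose 1.84-fold (log2 0.88 ± 0.21, adjusted p = 0.00976), and it passed in each of the 20 alternatives, with adjusted p from 2.60e-04 to 0.0394. After diesel exhaust the difference of 1.02 ± 0.29 missed the threshold with edgeR (0.0586) and passed with DESeq2 (0.0318). In filtered air it was 0.74 ± 0.29 (adjusted p = 0.321), and the interaction was 0.28 ± 0.41 (adjusted p = 1.0). Of the fibroblast and macrophage markers given above, 6 of 9 and 2 of 10 rose in the averaged comparison as well. The part of these cells in the rise of Rps27l was not tested.

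Its parent Rps27, whose start matches that of Rps27rt in the stretch printed above, was at 0.15 ± 0.26 averaged over exposure (adjusted p = 0.802). Rps27rt had 394, 90.5 and 49.9 CPM in diesel-exposed TAC hearts and 253, 61.8 and 80.7 CPM in diesel-exposed sham hearts. It had 302.5, 112 and 80.2 CPM in filtered-air TAC hearts and 300.4, 95.1 and 146 CPM in filtered-air sham hearts. In each group the library that stands apart was the highest, but Rps27rt was among the genes used to choose those libraries. All groups overlapped, and the averaged difference was 0.15 ± 0.66 (edgeR, adjusted p = 0.933). Among Rps27l and Rps27 alone, per kilobase, Rps27l made up 66.6 ± 13.2% in diesel-exposed TAC hearts, 45.8 ± 13.8% in diesel-exposed sham hearts, 59.6 ± 13.4% in filtered-air TAC hearts and 54.2 ± 5.4% in filtered-air sham hearts. Those shares do not count the reads in Rps27rt.

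**Figure D3:**
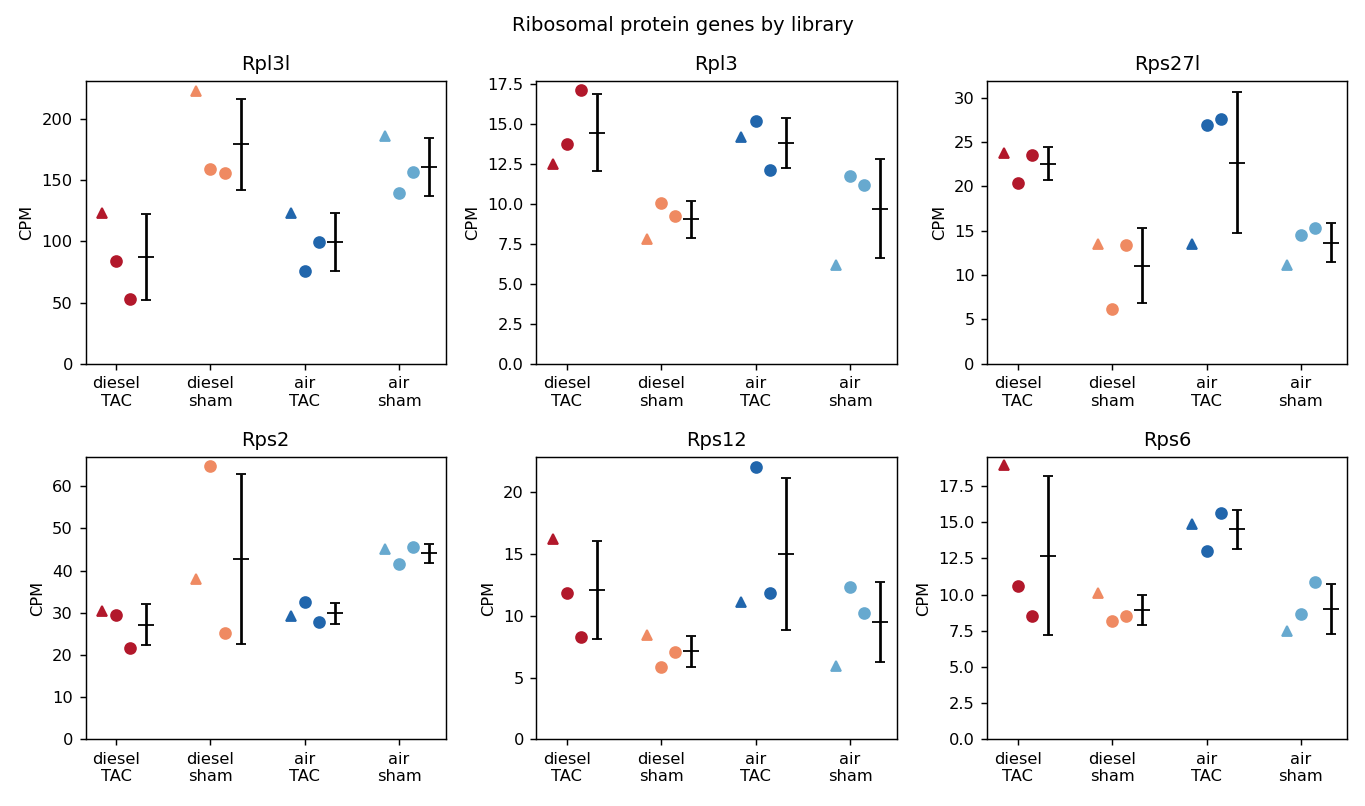
CPM of 6 genes in each library by group, with triangles for the 4 libraries that stand apart, circles for the others and bars for the mean ± SD of 3 hearts. All 6 TAC hearts lie below all 6 sham hearts for Rpl3l and above them for Rpl3, and the groups overlap over both exposures for Rps27l, Rps2, Rps12 and Rps6.

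The other paralogs showed no call. Rpl22l1, a paralog of the RNA-binding protein Rpl22, was at −0.05 ± 0.22 averaged over exposure (adjusted p = 0.936) and made up 9.79 ± 1.7% of the pair per kilobase in diesel-exposed TAC hearts, 10.9 ± 2.0% in diesel-exposed sham hearts, 11.2 ± 1.6% in filtered-air TAC hearts and 13.3 ± 1.3% in filtered-air sham hearts. Rpl7l1, which acts in the making of the large subunit, was at −0.01 ± 0.15 (adjusted p = 0.979). Rpl36al was at 0.15 ± 0.26 (adjusted p = 0.807) and held 89.5% to 96.6% of its pair with Rpl36a in the group means.

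Rpl36a itself, a protein of the large subunit near the exit site of the tRNA, was scarce and rested on 5 to 29 counts per library. It had 1.96, 2.23 and 1.49 CPM in diesel-exposed TAC hearts and 2.43, 2.51 and 0.866 CPM in diesel-exposed sham hearts. With filtered air in utero it had 3.45, 3.38 and 2.39 CPM in TAC hearts and 0.847, 0.881 and 0.811 CPM in sham hearts, without overlap. That difference of 1.84 ± 0.59 did not pass (adjusted p = 0.175). After diesel exhaust the difference was −0.03 ± 0.55 (adjusted p = 0.991), and the interaction was −1.87 ± 0.81 (adjusted p = 1.0, unadjusted p = 0.0306).

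Core genes of the large subunit had positive log2 differences more often than negative after TAC, 34 of 44 after diesel exhaust with a median of 0.16 and 29 of 44 in filtered air with a median of 0.05. For the small subunit it was 19 of 31 with a median of 0.04 after diesel exhaust and 16 of 31 with a median of 0.03 in filtered air. Over all 86 genes 61 were positive after diesel exhaust with a median of 0.13, beside 50.05% positive and a median of 0.0006 over all genes tested. In filtered air 50 of the 86 were positive with a median of 0.04, beside 50.5% and 0.01 over all genes tested. The median after diesel exhaust turned on 1 heart, since it was −0.06 without diesel-exposed TAC replicate 1, and it was 0.01 without the 4 libraries that stand apart. In filtered air it was −0.03 without TAC replicate 2. Counting the copies with their parents gave 0.10 and 0.02.

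**Figure D4:**
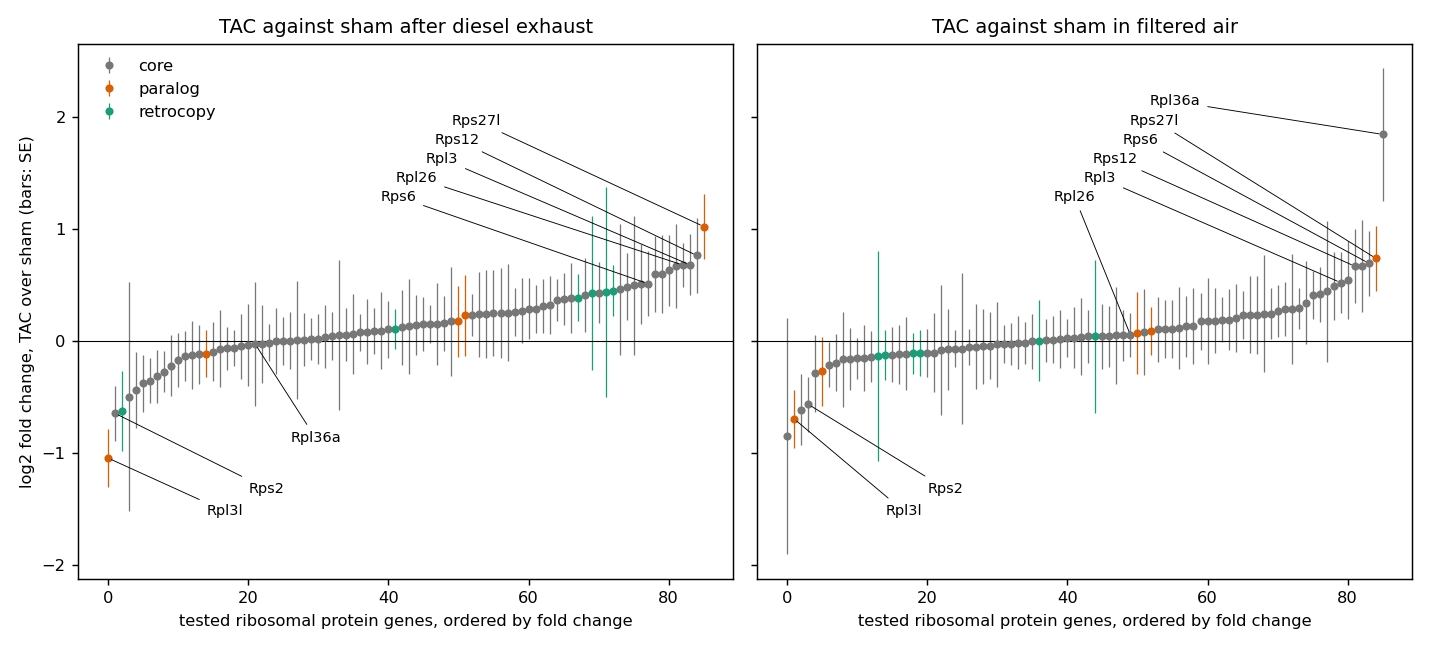
Log2 fold change of TAC over sham for the 86 tested genes, ordered by value, after diesel exhaust (left) and in filtered air (right), with bars of 1 SE and colours by class. Rpl3l lies lowest after diesel exhaust (−1.04) and Rps27l highest (1.02), and in filtered air Rpl36a lies highest (1.84) and Rpl9 lowest (−0.85).

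In filtered air none of the 86 genes passed for TAC against sham, while 0.829% of all genes passed, 0.609% higher and 0.22% lower. At an unadjusted p under 0.05 there were 3 higher (Rpl36a, Rps27l and Rps6) and 2 lower (Rpl3l and Rps2), which is 5.81% of the 86 against 11.1% of all genes, and DESeq2 called 0. No overlap of the libraries was seen for 6 genes that were higher in TAC hearts, against 8.2% of all genes, and 2 that were lower (Rpl3l and Rps2), against 7.57% of all genes. Averaged over exposure, 1 of the 86 rose (Rps27l) and 2 fell (Rpl3l and Rps2), 3 in all, while 8.01% of all genes passed, 4.1% higher and 3.91% lower. At an unadjusted p under 0.05 it was 8 higher (Rpl10, Rpl26, Rpl27a, Rpl3, Rpl36a, Rps12, Rps27l and Rps6) and 2 lower, or 11.6% of the 86 against 21.6% of all genes. Rpl3l was the only one lower without overlap, against 2.13% of all genes.

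Among the core genes below the threshold, Rpl26, which sits at the exit of the peptide tunnel, had 78.0, 56.8 and 59.0 CPM in diesel-exposed TAC hearts and 49.5, 28.3 and 43.1 CPM in diesel-exposed sham hearts. After filtered air it had 54.2, 60.7 and 69.9 CPM in TAC hearts and 59.2, 54.8 and 64.1 CPM in sham hearts. The diesel-exposed sham hearts were the lowest group, with no overlap with any other group. The difference of TAC from sham after diesel exhaust was 0.68 ± 0.20 (edgeR adjusted p = 0.0666, DESeq2 0.0414, with no filter 0.0278, with a term for the 4 libraries 0.0256), and in filtered air 0.05 ± 0.20 (adjusted p = 0.958). The interaction was 0.62 ± 0.28 (adjusted p = 1.0, unadjusted p = 0.037).

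Rps6, the target of the S6 kinases, had 18.9, 10.6 and 8.55 CPM in diesel-exposed TAC hearts and 10.1, 8.19 and 8.51 CPM in diesel-exposed sham hearts. In filtered air it had 14.9, 13.03 and 15.7 CPM in TAC hearts and 7.52, 8.66 and 10.9 CPM in sham hearts, without overlap. The averaged difference was 0.60 ± 0.21 (adjusted p = 0.0753). Rps12, a small-subunit protein and host of the snoRNA Snord100, was at 0.72 ± 0.24 averaged over exposure (adjusted p = 0.0674), with 8.25 to 16.2 CPM in diesel-exposed TAC hearts, 5.85 to 8.43 CPM in diesel-exposed sham hearts, 11.1 to 22.1 CPM in filtered-air TAC hearts and 5.93 to 12.3 CPM in filtered-air sham hearts. Both missed the threshold. Rps6 was at 0.38 without the 4 libraries that stand apart (adjusted p = 0.317), and it passed without diesel-exposed TAC replicate 3 (0.0467). Rps12 passed with no filter on low counts (0.024), without filtered-air TAC replicate 1 (0.0433), with copies summed onto their parent (0.0484) and with a term for the 4 libraries (0.0437).

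Rps13, a small-subunit protein that contacts the large subunit, had 9.43, 10.2 and 8.75 CPM in diesel-exposed TAC hearts and 5.36, 6.02 and 6.93 CPM in diesel-exposed sham hearts. In filtered air the order was the other way in the means, with 5.002, 7.39 and 6.09 CPM in TAC hearts and 13.2, 9.10 and 5.68 CPM in sham hearts. The interaction was 1.24 ± 0.45 (adjusted p = 1.0, unadjusted p = 0.0114). It was 0.69 without the 4 libraries that stand apart and 0.89 without filtered-air sham replicate 1. Rpl9, the scarcest of the 75 tested core genes per kilobase, had the lowest difference in filtered air, −0.85 ± 1.06 (adjusted p = 0.857).

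The stalk of the large subunit, formed by Rplp0, Rplp1 and Rplp2, held no gene past the threshold. Rplp0 averaged 178.5 ± 1.5 CPM in diesel-exposed TAC hearts, 186 ± 6.7 CPM in diesel-exposed sham hearts, 179 ± 17.7 CPM in filtered-air TAC hearts and 186 ± 31.5 CPM in filtered-air sham hearts (SD, n = 3 each). Its averaged TAC difference was −0.06 ± 0.11 (adjusted p = 0.833). Rplp1 was at 0.26 ± 0.13 (adjusted p = 0.253) and Rplp2 at −0.14 ± 0.17 (adjusted p = 0.706). Rpsa, a small-subunit protein known also as the laminin receptor, was at −0.02 ± 0.25 (adjusted p = 0.979) with 84.2 to 191 CPM in diesel-exposed TAC hearts and 86.0 to 162 CPM in diesel-exposed sham hearts, where the highest was in each case the library that stands apart. Rps4x, the X-linked small-subunit protein, ran from 12.3 to 37.2 CPM in diesel-exposed TAC hearts and from 13.7 to 24.1 CPM in diesel-exposed sham hearts. In filtered air Rps4x ran from 16.0 to 31.6 CPM in TAC hearts and from 24.0 to 25.1 CPM in sham hearts. Rpsa ran there from 90.5 to 161 CPM in TAC hearts and from 95.1 to 158 CPM in sham hearts.

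Diesel exhaust against filtered air gave no call among these genes in either surgery. In TAC hearts 0 of 86 passed, and 0.0% of all genes did, with 0 at an unadjusted p under 0.05, against 1.87% of all genes, and 0 by DESeq2. The median log2 difference was −0.01, and −0.01 over all genes. In sham hearts 0 of 86 passed, and 0.0% of all genes did, with 0 higher and 2 lower (Rpl26 and Rpl5) at an unadjusted p under 0.05, against 3.69% of all genes, and 0 by DESeq2. In sham hearts 58 of the 86 were negative, beside 6661 of 13626 over all genes. The median was −0.10, beside 0.01 over all genes, and the median stayed between −0.21 and −0.04 in the 20 alternatives. No gene was higher and 6 were lower without overlap in diesel-exposed sham hearts (Rpl22l1, Rpl26, Rpl27, Rpl31, Rpl32l and Rps7), where 4.0% and 3.6% of all genes did so.

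Rpl26 differed by −0.55 ± 0.20 (adjusted p = 0.996) in sham hearts between diesel exhaust and filtered air. That difference ranged from −0.72 to −0.36 when single libraries were left out. The lowest Rpl26 value, 28.3 CPM, was in diesel-exposed sham replicate 2, which was also the lowest of these hearts for Rpl5. Rpl5, which with Rpl11 and 5S RNA holds back Mdm2, had 14.3, 4.35 and 8.08 CPM in diesel-exposed sham hearts and 17.04, 12.3 and 13.6 CPM in filtered-air sham hearts. The groups overlapped and the difference was −0.67 ± 0.32 (adjusted p = 0.996), with a range of −1.19 to −0.36 when single libraries were left out. Rpl11 was at 7.03 ± 0.67 CPM in diesel-exposed sham hearts and 7.85 ± 1.1 CPM in filtered-air sham hearts. The other ends of the order in sham hearts were Rps13 at −0.63 ± 0.32 and Rpl30 at −0.61 ± 0.35 on the low side, and Rpl36a at 1.18 ± 0.60, Rps4l at 0.63 ± 0.36 and Rps16 at 0.45 ± 0.34 on the high side. In TAC hearts Rpl36a at −0.70 ± 0.54, Rps28 at −0.52 ± 0.30 and Rpl5 at −0.49 ± 0.30 were lowest, and Rps13 at 0.62 ± 0.31, Rpl9 at 0.49 ± 1.05 and Rpl11 at 0.43 ± 0.35 were highest. There the libraries did not overlap for 1 gene that was higher (Rps13) and 2 that were lower (Rpl36a and Rps3a1), against 3.96% and 3.76% of all genes.

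Averaged over surgery 0 of 86 passed for exposure, and 0.0% of all genes did, with Rpl5 the only one at an unadjusted p under 0.05 (−0.58 ± 0.22), against 3.32% of all genes, and 0 by DESeq2. For the interaction 0 of 86 passed, and 0.0% of all genes did, with 2 higher (Rps13 and Rpl26) and 1 lower (Rpl36a) at an unadjusted p under 0.05, against 2.4% of all genes, and 0 by DESeq2. A difference between the exposures in the response of Rpl3l or Rps27l to TAC was thus not detectable here.

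Genes around the ribosome were examined in TAC against sham averaged over exposure. Rack1 and Fau, which encode ribosomal proteins under other symbols, did not pass, with Rack1 at 0.21 ± 0.15 (adjusted p = 0.454) and Fau at 0.09 ± 0.15 (adjusted p = 0.813). Of 30 genes of ribosome biogenesis 1 rose, Rrp12, which acts in the export and maturation of the small subunit, by 0.65 ± 0.15 (adjusted p = 0.0106), and the median of the list was 0.04. It had means of 33.4 CPM in diesel-exposed TAC hearts, 20.4 CPM in diesel-exposed sham hearts, 30.7 CPM in filtered-air TAC hearts and 20.3 CPM in filtered-air sham hearts. Of 15 genes of RNA polymerase I, which makes the ribosomal RNA, 0 passed with edgeR and 0 with DESeq2 (1 higher and 2 lower unadjusted), with Taf1a at −0.51 ± 0.18 (adjusted p = 0.0814) and Polr1a at −0.38 ± 0.15 (adjusted p = 0.124).

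Among 10 elongation factors 1 rose. Eef1a1, which brings the aminoacyl tRNA to the ribosome, averaged 222 CPM in diesel-exposed TAC hearts, 141 CPM in diesel-exposed sham hearts, 184.5 CPM in filtered-air TAC hearts and 146 CPM in filtered-air sham hearts. It rose by 0.66 ± 0.17 on the log2 scale after diesel exhaust (adjusted p = 0.0365) and by 0.50 ± 0.12 averaged over exposure (adjusted p = 0.0127). Its adult muscle paralog Eef1a2 was at −0.23 ± 0.13 (adjusted p = 0.313). Of 28 initiation factors 1 fell, Eif1, which serves start codon choice, by 0.49 ± 0.15 (adjusted p = 0.0442). Of 15 other TOP transcripts and snoRNA hosts 2 rose, Eef1a1 again and Vim, the intermediate filament protein of fibroblasts and other non-muscle cells, by 0.84 ± 0.17 (adjusted p = 0.00485). In this list DESeq2 called 2 higher and 1 lower.

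The regulators did not pass. Of 15 genes of mTOR and Larp1 control 0 passed with edgeR and 0 with DESeq2 (0 higher and 3 lower unadjusted), with Eif4ebp2 at −0.38 ± 0.16 (adjusted p = 0.165) and Tsc2 at −0.33 ± 0.14 (adjusted p = 0.181). Of 7 tested genes of the Myc network 0 passed with either tool (2 higher and 2 lower unadjusted), with Mnt, an antagonist of Myc, at −0.64 ± 0.27 (adjusted p = 0.16). Myc, which drives ribosomal protein genes in growing cells, was at 0.96 ± 0.35 (adjusted p = 0.106) with means of 3.76 CPM in diesel-exposed TAC hearts, 2.11 CPM in diesel-exposed sham hearts, 4.72 CPM in filtered-air TAC hearts and 2.25 CPM in filtered-air sham hearts. Of 6 genes of the p53 response 0 passed with either tool (1 higher unadjusted), with Cdkn1a, the p53 target p21, at 0.65 ± 0.28 (adjusted p = 0.188) and Trp53 at 0.33 ± 0.20 (adjusted p = 0.354).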

How the data were processed

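The authors deposited raw counts per Entrez gene number from rRNA-depleted total RNA of 12 hearts. Per the submitters' processing notes, reads were handled with cutadapt 1.6, Subread 1.4.2 and featureCounts on build mm10. How strand and multi-mapping reads were handled, and on which annotation version, is not given in the sources used here. Symbols came from RefSeq (GRCm38.p6, 25275 genes) and GENCODE M21 (18 more), and 1886 genes without a symbol held 4.19% of the counts. The members and gene lists were chosen with earlier results of these data known.

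In R 4.3.3, edgeR 4.0.16 gave TMM-scaled CPM over all genes, filterByExpr (count minimum 10) kept 13626 genes, and a robust quasi-likelihood fit of 4 group means used 8 residual degrees of freedom. The Benjamini-Hochberg adjustment ran over all genes tested, within each of 7 comparisons, with a threshold of 0.05. The SE is the log2 fold change over the root of its F. The fit was tested on simulated data. Replicates are numbered in accession order.

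Named genes were those past the threshold, the 3 highest and 3 lowest differences per simple comparison, the 5 most and 5 least abundant per kb, fixed paralog pairs, stalk proteins, Rpsa and Rps6, and from other lists the genes past the threshold or the 2 with the smallest p. Some items are not reported here, nor drawn by name. Rpl26, Rps26, Rpl12, Rpl23 and single genes beside small counts were named after their values were seen. Alternatives were DESeq2 1.42.0, its size factors in edgeR, no filter, scaling without mitochondrially encoded or ribosomal protein genes, and each library left out. Copies summed onto their parents and both treatments of the 4 libraries that stand apart were added after seeing the data.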

Additional observations from a re-analysis of the deposited data

How the results depend on the processing

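No paired analysis was possible because the labels give no replicate numbers shared between groups. For TAC against sham after diesel exhaust, 1 gene passed in the fit as reported, 3 with DESeq2, 3 with no filter on low counts, 3 with a term for the 4 libraries that stand apart and 2 without those libraries. Leaving out 1 library gave 0 to 2. In filtered air the count was 0, and 1 with the term for the 4 libraries, which was Rpl3l, and it was 0 in each of the 12 fits without 1 library. Averaged over exposure 3 passed, 5 with that term, and 2 to 3 without 1 library. The exposure comparisons and the interaction had 0 in all 20 alternatives. Of 540 alternatives for the 27 results of single genes at an unadjusted p under 0.05, 0 reversed, 16 lost the call and 17 gained it. Those results were picked by p in these same counts, so a reversal was unlikely from the outset. Only results called in the fit as reported could lose a call. Rps2 averaged over exposure lost it in 10 of 20 alternatives and Rpl3l after diesel exhaust in 6 of 20. Rpl3l and Rps27l averaged over exposure lost it in 0. The largest absolute median log2 difference over all genes, in any fit and comparison, was 0.04. Depth limits the scarce genes, such as Rpl36a and Rpl9. The cause of the changes between alternatives was not tested.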

Other observations

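Rps19bp1, which matched the symbol rule but encodes a protein that binds Rps19, had 425 counts over 12 libraries. Its averaged TAC difference was 0.11 ± 0.29 (log2, edgeR adjusted p = 0.884).

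The snoRNA genes inside ribosomal protein genes were counted apart from their hosts. For TAC against sham averaged over exposure, their adjusted p ran from 0.0814 for Snora65 within Rpl12 (log2 0.40 ± 0.14) to 0.977 for Snora7a within Rpl32. Snord15b within Rps3 had the most counts of these genes, 81773, against 16586 for Rps3.

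The retrocopy Rps4l had 7.21 ± 0.91 CPM in diesel-exposed TAC hearts and 11.1 ± 1.5 CPM in diesel-exposed sham hearts, without overlap (log2 −0.63 ± 0.36, adjusted p = 0.418). In filtered air it had 7.18 ± 2.9 CPM in TAC hearts and 7.28 ± 3.5 CPM in sham hearts (SD, n = 3 each).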
